A study of Mus musculus with 16 samples.

Results

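The response of oestrogen receptor alpha knockout mice (B6.ER⍺KO, on the C57Bl/6 strain) to nephrotoxic serum was examined at 6 days, as RNA in extracts of glomeruli, the capillary tufts in which the kidney filters blood. The comparison was defined by the array labels: the 2 knockout arrays taken 6 days after serum were set against the 2 arrays of untreated knockout mice, 4 of the 16 arrays of the series. Treated mice had received sheep serum at 8 ul per g into the peritoneum, and whether the untreated mice received a control serum is not stated. All 16 mice were female and each gave 1 array, made from 10 ng of RNA. Wild type C57Bl/6 mice, 2 untreated and 2 at 6 days after the same serum, serve as the comparison genotype. Neither the age of the mice nor the deleted part of Esr1 is stated in the labels.

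Nephrotoxic serum holds antibodies that bind the glomerular basement membrane, the collagen and laminin sheet between the capillary and the podocyte. The bound antibody is known to recruit complement and leukocytes, to injure podocytes and capillaries, and later to harm the tubule downstream. Injured kidney cells are known to re-enter the cell cycle, to make matrix and cytoskeletal proteins, and to lose transporters and metabolic enzymes. Oestrogen receptor alpha, the product of Esr1, is a hormone-activated transcription factor.

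Some cell division genes, an annexin, adrenomedullin and complement component 4 rose in the knockout extracts at 6 days, and the calcium-binding S100g fell. Of 30142 genes, 20 passed the test (0.0664%, limma with Benjamini-Hochberg adjusted p = 0.0461 for each): 18 rose (0.0597%) and 2 fell (0.00664%). In all, 4126 genes (13.7%) had an unadjusted p under 0.05. The calls sit at the threshold, and 417 genes were called at an adjusted p under 0.1. The count was 0 without either untreated knockout array, without knockout 6 days replicate 2 or without either untreated wild type array. It was 9 without either wild type 6-day array and 945 without knockout 6 days replicate 1. Genes outside the 20 are therefore described by their array values and not called.

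The fitted values are the deposited log2 values, with 1 probeset per gene. Because 152 genes had a mean above 16, the most that a plain log2 of a 16-bit scanner signal can reach, an unstated transformation is present. Differences are therefore given in log2 units of the deposited table and not as folds of RNA. Errors after ± are standard errors of the fitted difference, 2 arrays against 2, with the spread shared by the 8 untreated and 6-day arrays. A second, descriptive measure counts a gene as apart when both 6-day arrays lay above (or below) both untreated arrays and the means differed by at least 1 log2 unit. It carries no test. By this measure 359 genes were higher at 6 days in knockout (1.19%) and 199 were lower (0.66%).

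Esr1 itself did not mark the genotype. It read 7.40 and 7.56 in the untreated knockout arrays and 7.37 and 7.29 at 6 days, and in wild type 7.04 and 7.0004, then 6.70 and 7.01. The knockout arrays were thus not lower, and because the part of the transcript that the probeset reads is not given here, this signal cannot check the deletion. The tissue label was set against marker genes. The 19 podocyte markers had a mean level of 9.11 and 9.45 in untreated knockout and 9.46 and 10.11 at 6 days. The 24 proximal tubule markers had a mean level of 15.04 and 15.15, then 15.01 and 14.52, so the extracts also carried tubule RNA. In such bulk extracts fewer cells of a type and less RNA per cell cannot be told apart.

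The replicates at 6 days were not equal. Over the 359 higher genes the median distance from the untreated mean was 1.01 in replicate 1 and 1.74 in replicate 2, and replicate 2 lay farther out in 349 of the 359. Over the 199 lower genes the medians were -0.89 and -1.60, with replicate 2 farther out in 182. Replicate 2 also had the higher endothelial marker mean (9.52, against 8.85 in replicate 1 and 8.47 and 8.78 untreated). Its mesangial and smooth muscle marker mean was higher too (8.74, against 8.14 in replicate 1 and 7.503 and 7.66 untreated). Its distal nephron marker mean was lower (9.76, against 10.20 in replicate 1 and 10.71 and 10.64 untreated). The part of these marker shifts in the gene differences was not tested.

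Among the arrays outside the 6-day comparison, both 18-hour second replicates go against their labels. Genes with higher levels in male kidney had a mean of 10.05 in the library labelled knockout 18 hours replicate 2 and 14.74 in replicate 1, and of 15.50 in the library labelled wild type 18 hours replicate 2 and 10.28 in replicate 1. Female-biased genes had means of 13.19 and 10.14 in these knockout libraries and 10.40 and 13.45 in the wild type ones. The 18-hour second replicates thus read like the other genotype, and labels were kept as given. No 18-hour or 2-week array entered the fit.

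The 3 fibrinogen genes encode the chains of the clot protein, lie side by side on chromosome 3 and are known as liver acute phase genes driven by interleukin-6. Their promoters are shown because the genes had some of the highest differences of the comparison, in the same arrays. Each promoter spans 250 bases before to 50 bases after the start of the gene (RefSeq, GRCm38.p6), and capitals mark CTGGGA, the core of the interleukin-6 response element, on either strand. They lie at chr3:83025903-83026202 (plus strand, Fga), chr3:83049814-83050113 (minus strand, Fgb) and chr3:83007474-83007773 (plus strand, Fgg).
Fga: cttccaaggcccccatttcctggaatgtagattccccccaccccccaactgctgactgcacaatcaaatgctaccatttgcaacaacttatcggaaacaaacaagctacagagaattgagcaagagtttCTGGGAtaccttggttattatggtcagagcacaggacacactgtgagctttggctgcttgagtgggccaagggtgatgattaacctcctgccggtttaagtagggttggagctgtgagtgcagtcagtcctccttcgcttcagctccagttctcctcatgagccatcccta
Fgb: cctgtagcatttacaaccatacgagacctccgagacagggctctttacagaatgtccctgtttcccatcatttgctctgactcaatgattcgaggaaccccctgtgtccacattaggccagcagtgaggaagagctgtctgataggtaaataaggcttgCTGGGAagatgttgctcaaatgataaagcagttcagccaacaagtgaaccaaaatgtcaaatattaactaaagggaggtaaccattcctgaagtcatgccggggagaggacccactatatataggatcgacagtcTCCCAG
Fgg: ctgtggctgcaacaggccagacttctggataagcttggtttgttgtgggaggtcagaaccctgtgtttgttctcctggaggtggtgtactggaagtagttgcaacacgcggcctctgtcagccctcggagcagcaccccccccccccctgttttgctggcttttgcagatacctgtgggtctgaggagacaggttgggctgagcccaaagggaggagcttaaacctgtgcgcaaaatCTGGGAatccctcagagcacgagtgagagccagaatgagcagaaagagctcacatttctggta
All 3 promoters held the letters, and so did 31.5% of 27025 promoters of the same length, so the match is common.

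Fgg, the gamma chain, read 8.01 and 8.06 in the untreated knockout arrays and 14.57 and 16.14 at 6 days, a difference of 7.32 ± 1.22 (limma adjusted p = 0.0755). Fga, the alpha chain, read 7.65 and 7.63, then 11.14 and 12.85 (4.36 ± 0.78, limma adjusted p = 0.0838). Fgb, the beta chain, read 5.88 and 5.42, then 8.76 and 10.27 (3.87 ± 0.80, limma adjusted p = 0.105). In each gene both 6-day arrays stood far above both untreated arrays, replicate 2 stood higher than replicate 1, and the test was not passed. In wild type Fgg read 7.32 and 8.16 untreated and 9.33 and 13.65 at 6 days, so the mice at 6 days were far apart. The knockout difference exceeded the wild type one by 3.57 ± 1.73 for Fgg, 2.64 ± 1.10 for Fga and 2.17 ± 1.13 for Fgb, and none of these passed (limma adjusted p = 1 for each).

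Other clotting genes lay closer to the untreated level. The list of 19 clotting and plasminogen genes includes Fga, Fgb and Fgg. Of the 19, 7 were apart upwards in knockout, with Fga, Fgb and Fgg among them, and 7 in wild type. The list's median difference was 0.25 in knockout and 0.43 in wild type, and over all genes it was 0.0018 and 0.031. F2r, the thrombin receptor, read 9.48 and 9.24, then 10.56 and 11.95 in knockout. Serpina10, which inhibits clotting factor X together with protein Z, read 5.0007 and 4.67, then 7.39 and 9.03 (3.38 ± 0.72, limma adjusted p = 0.112). It was 1 of 2 apart among 15 serpin genes.

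**Figure D1:**
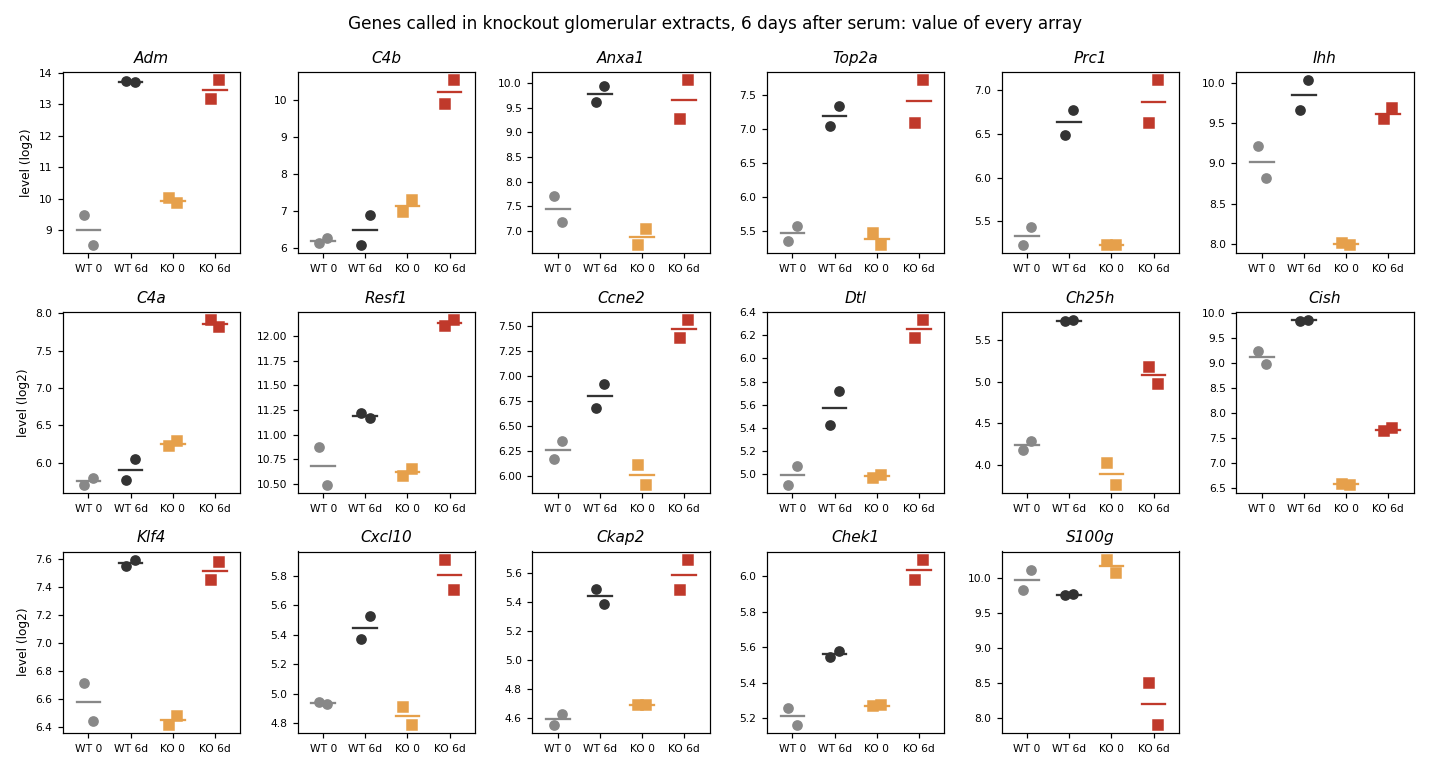
Level (log2, vertical axes, each panel on its own scale) of the 17 named genes that passed in knockout, in every untreated (0) and 6-day array of wild type (WT, circles) and knockout (KO, squares); bars mark means of 2 arrays. In the C4a and C4b panels the knockout 6-day squares stand above every other array, and in the S100g panel they stand below every other array.

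Complement component 4 is cleaved in the classical and lectin pathways and is then bound to the surface that antibody marks. C4b rose by 3.07 ± 0.30, from 6.96 and 7.30 in untreated knockout to 9.87 and 10.52 at 6 days. C4a, its close copy, known in mice as sex-limited protein, rose by 1.61 ± 0.12, from 6.22 and 6.29 to 7.91 and 7.81. Probesets of such near-identical copies may share signal, so they cannot be counted as independent. In wild type C4b read 6.14 and 6.27, then 6.08 and 6.89, and the groups overlapped. C4a read 5.70 and 5.80, then 5.76 and 6.05 there, also with overlap. Of the other complement genes among the 15 measured, none passed and none was apart. Over all genes 0.0664% passed, 1.19% were apart upwards and 0.66% downwards, so none in so few genes is near those shares. The difference was above 0 in 11 of the 15, with a median of 0.22 (0.20 in wild type). C3, the central component, had no probeset of its own among those used here. Cfi, the protease that inactivates component 4, read 5.94 and 6.44, then 6.63 and 7.16 in knockout.

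C4a, C4b and S100g had the smallest p-values, among genes that can be named, for a difference between the genotypes' responses, and they did not pass. The knockout minus wild type difference was 1.45 ± 0.17 for C4a (limma adjusted p = 0.607), 2.78 ± 0.42 for C4b and -1.76 ± 0.29 for S100g (limma adjusted p = 1 for both). By this limma test no gene of 30142 passed (0%), and 1135 had an unadjusted p under 0.05 (3.77%). A response called in knockout and not in wild type is thus not shown to differ between them.

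Among the called genes were 3 that act in mitosis. Top2a, the topoisomerase that untangles chromosomes, read 5.47 and 5.29 untreated and 7.09 and 7.71 at 6 days (2.02 ± 0.21). Prc1, which bundles the spindle midzone, read 5.23 in both untreated arrays, then 6.62 and 7.11 (1.63 ± 0.18). Ckap2, another spindle protein, read 4.69 in both untreated arrays, then 5.48 and 5.69 (0.90 ± 0.10). These genes stood well above the untreated level in both 6-day arrays. A further 3 called genes act around DNA copying. Ccne2, a cyclin of entry into S phase, read 6.10 and 5.91, then 7.39 and 7.56 (1.47 ± 0.13). Dtl, which directs the licensing factor Cdt1 to degradation, read 4.96 and 4.99, then 6.18 and 6.33 (1.28 ± 0.12). Chek1, the kinase that halts the cycle when copying stalls, read 5.27 and 5.28, then 5.98 and 6.09 (0.77 ± 0.08).

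A pair of motifs known from such genes was searched in the promoters. For the 4 called cell division genes that hold one, 150 bases of the promoter are printed. Chek1 held neither motif, and Ccne2 had no promoter entry, so neither gene is printed. Capitals mark TTTGAA, the cell cycle homology region of mitosis genes, or TTTNNCGC, a form of the E2F site of S phase genes, on either strand. The stretches (RefSeq, GRCm38.p6) lie at chr11:99024160-99024309 (minus strand, Top2a), chr7:80294331-80294480 (plus strand, Prc1), chr8:22185790-22185939 (minus strand, Ckap2) and chr1:191575515-191575664 (minus strand, Dtl).
Top2a: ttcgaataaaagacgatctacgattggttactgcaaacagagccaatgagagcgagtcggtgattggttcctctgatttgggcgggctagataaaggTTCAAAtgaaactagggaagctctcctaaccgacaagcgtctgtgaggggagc
Prc1: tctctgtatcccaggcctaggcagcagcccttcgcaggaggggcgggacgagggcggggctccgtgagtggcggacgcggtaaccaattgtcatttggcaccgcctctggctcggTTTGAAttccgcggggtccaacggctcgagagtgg
Ckap2: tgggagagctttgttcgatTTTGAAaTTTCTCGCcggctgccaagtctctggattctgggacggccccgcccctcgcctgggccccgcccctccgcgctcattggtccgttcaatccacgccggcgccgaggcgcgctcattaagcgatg
Dtl: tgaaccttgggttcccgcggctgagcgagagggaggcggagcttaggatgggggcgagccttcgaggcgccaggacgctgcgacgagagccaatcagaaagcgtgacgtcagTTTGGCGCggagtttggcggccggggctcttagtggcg
TTTGAA stood in 16 of 23 cell cycle gene promoters (69.6%) and in 18.1% of all 27025. TTTNNCGC stood in 9 of 19 DNA replication gene promoters (47.4%) and in 5.27% of all, and the Ckap2 stretch carries both motifs. Crossed, TTTGAA stood in 15.8% of the DNA replication gene promoters and TTTNNCGC in 4.35% of the cell cycle ones. Of 15 called genes with a promoter entry 5 held TTTGAA (33.3%), Adm and Anxa1 besides the 3 printed, and 2 held TTTNNCGC (13.3%).

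In the list of 27 cell cycle and mitosis genes 2 rose, the others did not pass, 14 were apart upwards and none downwards. The difference was above 0 in 27 of 27, from 0.24 to 3.24, with a median of 1.06. Mki67, the classic marker of cycling cells, was at the top and read 6.32 and 5.59, then 8.58 and 9.79 (3.24 ± 0.46, limma adjusted p = 0.0638). Ccna2, the cyclin of S and G2 phase, read 6.55 and 6.59, then 7.93 and 8.68. In wild type 11 of these genes were apart upwards and the median was 0.90. Of 22 DNA replication genes 8 were apart upwards in knockout and 2 in wild type, with medians of 0.79 and 0.44 and no gene called. Mcm3 and Mcm5, subunits of the helicase that opens DNA, differed by 1.74 ± 0.20 and 1.71 ± 0.26 in knockout (limma adjusted p = 0.0533 and 0.0701) and by 1.10 and 0.84 in wild type. Pcna, the sliding clamp, read 9.90 and 10.08, then 11.24 and 11.86 in knockout. Cdkn1a, the p53 target that blocks the cycle, read 6.62 in both untreated arrays, then 8.88 and 10.15. It was 1 of 3 apart among 23 p53 and cell death genes.

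**Figure D2:**
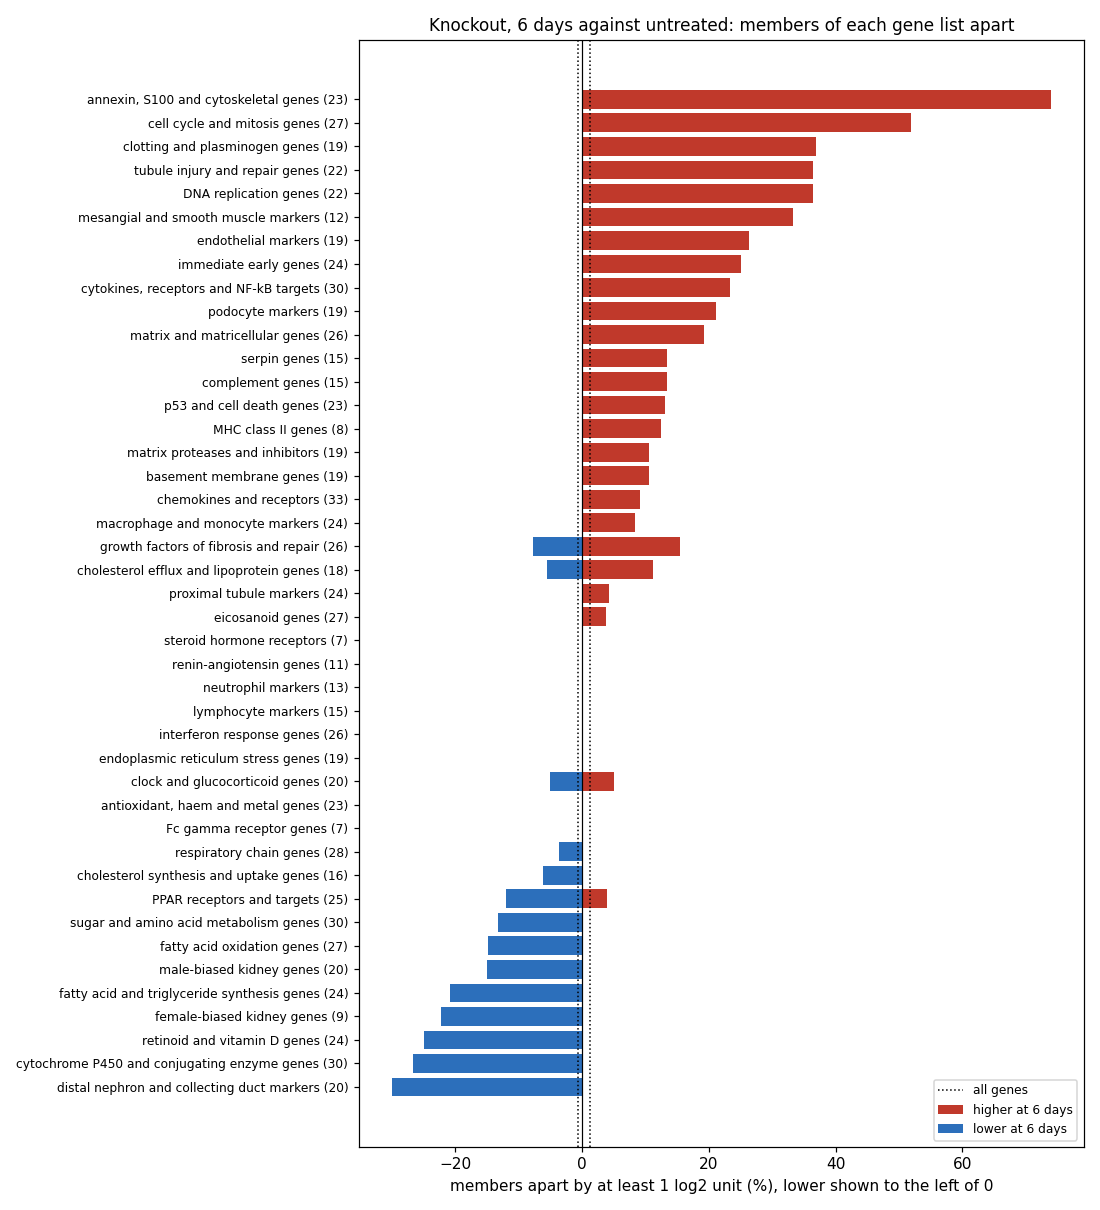
Share of the measured members of each gene list (number in brackets) whose 6-day and untreated knockout arrays lay apart by at least 1 log2 unit, higher in red to the right and lower in blue to the left of 0; dotted lines mark the same shares over all genes (1.19% and 0.66%). The annexin, S100 and cytoskeletal list has the longest red bar, 17 of 23 genes, and the distal nephron list the longest blue bar, 6 of 20.

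The list of annexins, S100 proteins and genes of the actin and tubulin cytoskeleton had the highest share of members apart, 17 of 23 in knockout and 19 in wild type, with medians of 1.37 and 1.27. Anxa1, an annexin that restrains leukocyte entry, rose by 2.80 ± 0.29, from 6.70 and 7.03 to 9.27 and 10.06. Anxa3, a membrane-binding annexin, read 7.19 and 7.60, then 9.74 and 10.85 without passing. Flna, an actin crosslinker, read 9.97 and 10.11, then 11.79 and 12.78. In these genes the 6-day arrays of both genotypes stood above their untreated arrays.

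Single called genes came from several pathways. Adm, which encodes the vasodilator adrenomedullin, rose most of the named calls, by 3.52 ± 0.32, from 10.00 and 9.86 to 13.16 and 13.75. It also rose in wild type, by 4.71 ± 0.32 (limma adjusted p = 0.0293). Ch25h, which makes 25-hydroxycholesterol, rose by 1.19 ± 0.12 in knockout (4.02 and 3.76, then 5.18 and 4.97) and by 1.51 ± 0.12 in wild type (limma adjusted p = 0.0316). These are the only 2 genes called in both genotypes, and 19 of the 20 knockout calls had the same sign in wild type. Ihh, a ligand of the hedgehog pathway, read 8.01 and 7.99, then 9.55 and 9.69 (1.62 ± 0.18). Resf1, a retroelement silencing factor, read 10.58 and 10.66, then 12.10 and 12.16 (1.51 ± 0.16). Its wild type arrays read 10.88 and 10.49, then 11.22 and 11.17. Klf4, a transcription factor of podocytes and endothelium, rose by 1.06 ± 0.12, from 6.42 and 6.48 to 7.45 and 7.58.

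Cish encodes an inhibitor of cytokine receptor signalling that STAT5 induces. It rose by 1.10 ± 0.12, from 6.59 and 6.57 to 7.64 and 7.70, and so stayed below untreated wild type, which read 9.25 and 8.98. Cxcl10, a chemokine for T cells induced by interferon, rose by 0.96 ± 0.10, from 4.91 and 4.79 to 5.91 and 5.70. These are low readings for the table, whose array medians over the fitted genes were 5.92 to 6.03. Ch25h and Ckap2 likewise read below these medians in every untreated and 6-day knockout array. Top2a, Prc1, Dtl and Chek1 read below them in both untreated knockout arrays. Predicted transcripts made up the other 3 calls, chosen for mention after their values were seen. Gm15895 rose from 8.02 and 7.55 to 10.18 and 10.19, while wild type read 7.88 and 7.93, then 7.49 and 8.02. Gm13232 rose by 1.17 ± 0.12 and Gm26697 fell by 0.87 ± 0.10.

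Inflammatory signals were uneven. Of 33 chemokine and receptor genes Cxcl10 alone passed and 3 were apart upwards. Cxcl1, a neutrophil chemokine, read 4.80 and 5.16, then 6.49 and 7.13. Of 30 cytokine, receptor and NF-kB target genes 7 were apart upwards in knockout and 3 in wild type, and none passed. Tnfrsf12a, the receptor of TWEAK, read 8.51 and 8.12, then 11.58 and 12.99 (3.97 ± 0.70, limma adjusted p = 0.0834). Il34, a growth factor of macrophages made by tubule cells, read 7.68 and 7.40, then 9.87 and 10.60, and in wild type 7.09 and 6.997, then 7.24 and 8.46. Icam1, which leukocytes grip, read 7.92 and 8.03, then 9.50 and 10.30. All of these stood higher in both 6-day knockout arrays.

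Markers of the leukocytes themselves had small median differences, as did the lists of signals. The chemokine list had a median of 0.14 in knockout and 0.12 in wild type. The cytokine, receptor and NF-kB target list had medians of 0.27 and 0.30. Of 24 macrophage and monocyte markers 2 were apart upwards in knockout and 4 in wild type, with medians of 0.17 and 0.42. The marker mean was 6.33 and 6.22 untreated and 6.45 and 6.56 at 6 days in knockout, and 6.27 and 6.21, then 6.74 and 6.72, in wild type. Lyz2, the macrophage lysozyme, read 7.31 and 7.08, then 8.00 and 8.40 in knockout. Tyrobp, a signalling adaptor of myeloid receptors picked after its values were seen, was 1 of 6 genes called in wild type (0.0199%). It read 5.73 and 5.86, then 6.85 and 6.81 there, and 5.74 and 5.78, then 6.10 and 5.96 in knockout. The difference of these responses, -0.76, did not pass.

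No member of the lists of 13 neutrophil markers, 15 lymphocyte markers and 7 Fc gamma receptor genes was apart in knockout. Over all genes 1.19% were apart upwards and 0.66% downwards, so a count of none in such short lists is near that share. The neutrophil marker mean was 4.997 and 4.94, then 5.04 and 5.16, and the lymphocyte mean 4.96 and 4.93, then 4.996 and 4.95. These means are low readings, below the array medians over the fitted genes of 5.92 to 6.03. S100a8, a neutrophil calgranulin, read 4.23 and 3.86, then 4.47 and 5.08. Of 26 interferon response genes none was apart, though 25 had a difference above 0, with a median of 0.26 (0.48 in wild type). Among 8 MHC class II genes H2-Ab1 was apart, at 10.97 and 10.99, then 11.87 and 12.61. None of these genes passed.

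Some genes of tubule injury and of glomerular cells were higher without passing. Of 22 tubule injury and repair genes 8 were apart upwards in knockout and 4 in wild type. Havcr1, the injury receptor KIM-1 of the proximal tubule, read 7.95 and 7.28, then 10.31 and 12.39 (3.73 ± 0.84, limma adjusted p = 0.126), and in wild type 6.03 and 6.06, then 6.83 and 9.19. Vcam1, an adhesion molecule of injured tubule and endothelium, read 6.68 and 6.64, then 8.72 and 10.94. Vim, the intermediate filament vimentin, read 7.74 and 8.21, then 11.16 and 12.30 (3.75 ± 0.43, limma adjusted p = 0.0533). Replicate 2 was the higher array in each. Of the proximal tubule markers 21 of 24 had a difference below 0 and Slc13a1, a sulphate transporter, was the one gene apart, upwards. It read 16.66 and 15.90, then 17.42 and 17.90.

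Podocyte markers were apart upwards for 4 of 19 genes, endothelial markers for 5 of 19 and mesangial and smooth muscle markers for 4 of 12, with the same counts in wild type. Nes, an intermediate filament of podocytes, read 8.64 and 8.85, then 10.30 and 11.63. Pecam1, of endothelial junctions, read 9.26 and 9.43, then 10.56 and 11.40. Tagln, a smooth muscle actin-binding protein, read 8.25 and 8.23, then 11.69 and 12.49 (3.85 ± 0.51, limma adjusted p = 0.0593). The wild type difference for Tagln was 3.82. Acta2, smooth muscle actin, read 8.69 and 9.02, then 10.04 and 11.09. No marker on these lists passed.

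Matrix genes were apart upwards for 5 of 26 members in each genotype. Thbs2, a matricellular thrombospondin, read 6.63 and 6.76, then 8.98 and 9.42 (2.50 ± 0.29, limma adjusted p = 0.0533), with a wild type difference of 1.46. Sparc, a collagen chaperone of the matrix, read 11.91 and 12.33, then 13.80 and 14.90. Among 19 basement membrane genes Lamc1, a laminin chain, and Nid1, which links laminin to collagen, were the 2 apart, at 1.04 and 1.03. Of 19 matrix proteases and inhibitors Adamts1 and Timp2 were apart, at 2.53 and 1.76. Tgfb2 and Tgfb3, profibrotic growth factors, differed by 2.08 and 1.52. Ednrb, an endothelin receptor, read 9.08 and 9.05, then 10.99 and 12.61. None passed, and all were higher in both 6-day arrays.

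Immediate early genes, which cells switch on within minutes of a stimulus or of tissue handling, were higher as well. Of 24 such genes Klf4 rose, 6 were apart upwards (5 in wild type), and 24 of 24 had a difference above 0. Nr4a1, an orphan nuclear receptor, read 6.37 and 6.28, then 8.996 and 9.17, and in wild type 6.70 and 6.19, then 8.91 and 10.38. Jun, a subunit of AP-1, read 6.76 and 7.06, then 8.996 and 9.31 in knockout. The part of tissue handling in these values was not tested. Endoplasmic reticulum stress genes had 0 of 19 apart, antioxidant, haem and metal genes 0 of 23 and renin-angiotensin genes 0 of 11. Such counts in short lists are near the shares over all genes (1.19% upwards and 0.66% downwards). Yet 18 of the 19 endoplasmic reticulum stress genes had a difference above 0, with a median of 0.31 (0.40 in wild type). The antioxidant, haem and metal list had 10 of 23 above 0 and a median of -0.07. The renin-angiotensin list had 7 of 11 above 0 and a median of 0.07. The knockout median over all genes was 0.0018.

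Transport genes of the distal nephron lay lower at 6 days in knockout. S100g, the small calbindin that carries calcium through the tubule cell, fell by 1.97 ± 0.21, from 10.27 and 10.08 to 8.50 and 7.90. In wild type it read 9.84 and 10.12, then 9.76 and 9.78. Calb1, the larger calbindin of the distal convoluted tubule, read 12.84 and 11.97, then 9.85 and 8.52 in knockout (-3.21 ± 0.56, limma adjusted p = 0.0832). Its wild type arrays read 12.27 and 11.70, then 12.31 and 11.08, and these groups overlapped. Trpm6, the magnesium channel of the same segment, read 11.81 and 10.83, then 8.90 and 8.26 (-2.74 ± 0.39, limma adjusted p = 0.0638). Slc8a1, the exchanger that moves calcium out of these cells and was picked after its values were seen, read 11.36 and 10.52, then 9.34 and 8.00. The 4 genes thus lay lower in both 6-day knockout arrays. Their differences of responses between genotypes ran from -2.92 for Calb1 to -1.76 for S100g and did not pass.

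Of 20 distal nephron and collecting duct markers 6 were apart downwards in knockout and none in wild type, with medians of -0.53 and 0.07. None was called. Over all genes 0.66% were apart downwards in knockout and 0.236% in wild type. A count of none in wild type, here or in the lists below, is near that share. It does not by itself show a difference between the genotypes. Slc12a1, the sodium-potassium-chloride cotransporter of the thick limb, read 14.98 and 15.65, then 14.43 and 13.63. Kcnj1, the potassium channel ROMK, read 9.98 and 9.86, then 9.08 and 8.24. Egf, a growth factor made in the distal tubule, read 13.93 and 14.14, then 12.45 and 10.84, and in wild type 14.79 and 14.43, then 14.09 and 12.81. Vitamin D is known to act on the calcium genes among these, and its part in their differences was not tested. Cyp27b1, the enzyme that makes active vitamin D, read 7.79 and 8.20, then 6.45 and 6.90 (-1.32 ± 0.20, limma adjusted p = 0.0701). Vdr, the vitamin D receptor, and Kl, the klotho co-receptor, both picked after their values were seen, differed by -0.85 and -1.07. Of 24 retinoid and vitamin D genes S100g fell and 6 were apart downwards, against none in wild type. The list's median was near 0, at -0.05 in knockout and 0.11 in wild type, and 10 members had a knockout difference above 0. Calb1 had the lowest difference of this list and of the distal nephron list, so the counts of genes apart overlap.

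**Figure D3:**
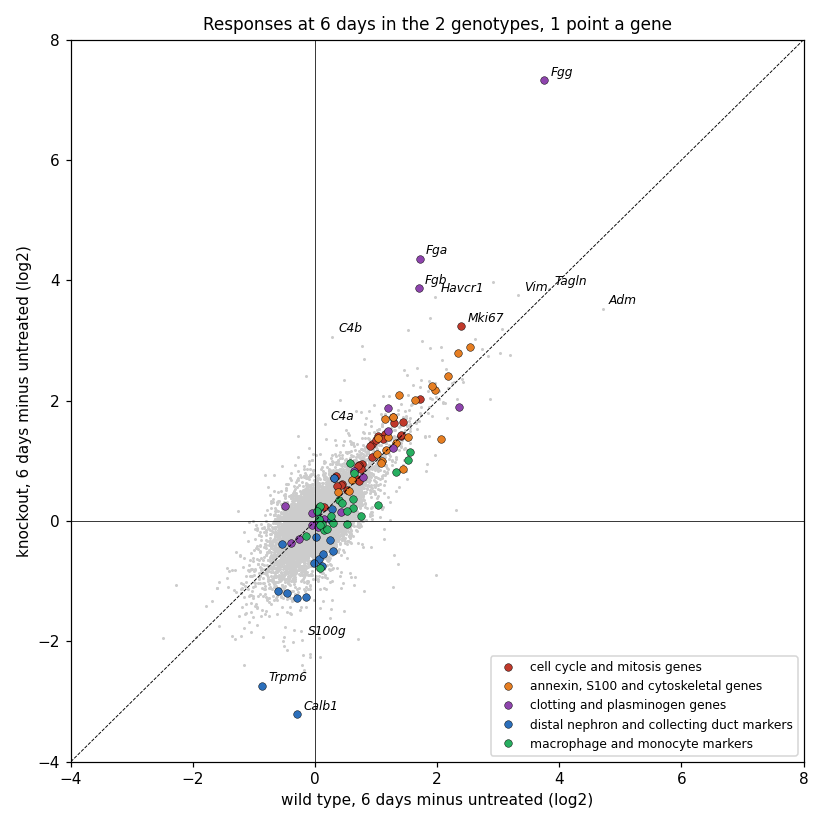
Difference at 6 days (log2, 6-day minus untreated mean) of each of 30142 genes in wild type (horizontal) and knockout (vertical); coloured points are members of 5 lists, and the dashed line marks equal differences. Fgg, Fga, Fgb and C4b lie above the line, Calb1, Trpm6 and S100g below it, and Tagln on it; no gene passed the test of the difference between the genotypes.

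Enzymes of drug and steroid metabolism lay lower too. Of 30 cytochrome P450 and conjugating enzyme genes 8 were apart downwards in knockout and none in wild type, with medians of -0.37 and -0.11, and none passed. Cyp2d9, a steroid hydroxylase with higher levels in male mice, read 16.16 and 16.23, then 14.82 and 12.63. In wild type it read 11.77 and 11.62, then 12.28 and 10.76, so untreated knockout began higher. Cyp4a14, a fatty acid hydroxylase and PPAR alpha target, began lower in knockout, at 11.01 and 11.47, then 7.80 and 10.14, while wild type read 16.65 and 16.72, then 16.94 and 16.60. Near copies within these families may share signal. Of 20 male-biased kidney genes 3 were apart downwards, and of 9 female-biased ones 2, with none in wild type for either. These lists stood far apart between the untreated genotypes: the male-biased mean was 15.59 and 15.07 in knockout and 10.56 and 10.13 in wild type, and the female-biased mean 9.86 and 10.22 against 13.24 and 12.89.

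Some lipid genes were lower without passing. Of 24 fatty acid and triglyceride synthesis genes 5 were apart downwards in knockout and none in wild type. Fasn, the fatty acid synthase, read 10.96 and 10.82, then 9.97 and 8.96 (-1.43 ± 0.33, limma adjusted p = 0.132). Gpam, which starts triglyceride synthesis, read 11.08 and 10.91, then 9.98 and 9.14. Thrsp, a regulator of lipogenesis, read 7.84 and 6.91, then 6.07 and 5.83. Of 27 fatty acid oxidation genes 27 had a difference below 0, with a median of -0.39 (-0.29 in wild type), and 4 were apart. Acaa1b, a peroxisomal thiolase, read 10.13 and 10.22, then 8.97 and 8.53 (-1.42 ± 0.22, limma adjusted p = 0.0701). Abca1, which exports cholesterol, was higher instead, at 9.18 and 8.85, then 10.56 and 11.50, against 9.55 and 9.67, then 9.40 and 10.64 in wild type.

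Further metabolic lists were counted in the same way. Sugar and amino acid metabolism genes were apart downwards for 4 of 30 members (3 in wild type), respiratory chain genes for 1 of 28 and cholesterol synthesis genes for 1 of 16. Their median differences were -0.59, -0.42 and -0.13. Hpd, an enzyme of tyrosine breakdown, read 9.19 and 10.45, then 8.65 and 7.44. Hao2, a peroxisomal oxidase of hydroxy acids picked after its values were seen, read 12.04 and 12.76, then 10.81 and 9.97. Bcl6, a repressor picked in the same way, read 10.26 and 8.68, then 7.27 and 7.23 in knockout and 6.68 and 6.41, then 6.31 and 6.61 in wild type. Of 7 steroid hormone receptor genes none was apart, which is near the shares over all genes (1.19% upwards and 0.66% downwards). Their difference was below 0 in 6 of 7, with a median of -0.15 (-0.17 in wild type). Medians of the eicosanoid (0.01), clock and glucocorticoid (0.02), lymphocyte (0.02) and Fc gamma receptor (0.02) lists lay so near 0 that their sign turned when arrays were centred on their medians. The 24 markers of proximal tubule, the source of most of these metabolic enzymes, had means in wild type of 14.74 and 15.21, then 14.80 and 14.51.

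The knockout and wild type responses, which share no array, had a correlation of 0.68 across the 30142 genes, as a description, since genes are not independent. Of the 359 genes apart upwards in knockout, 353 (98.3%) had a positive difference in wild type and 216 (60.2%) were apart there too. Those 216 were 74.7% of the 289 genes apart upwards in wild type (0.959%). Of the 199 genes apart downwards, 182 (91.5%) had a negative difference in wild type and 41 (20.6%) were apart. Those 41 were 57.7% of the 71 genes apart downwards in wild type (0.236%). Genes chosen for their knockout difference favour it, with medians of 1.34 against 1.10 for the higher genes and -1.22 against -0.61 for the lower ones. Chosen on wild type, the medians were 1.33 in wild type and 1.36 in knockout for higher genes, and -1.16 and -1.10 for lower ones.

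**Figure D4:**
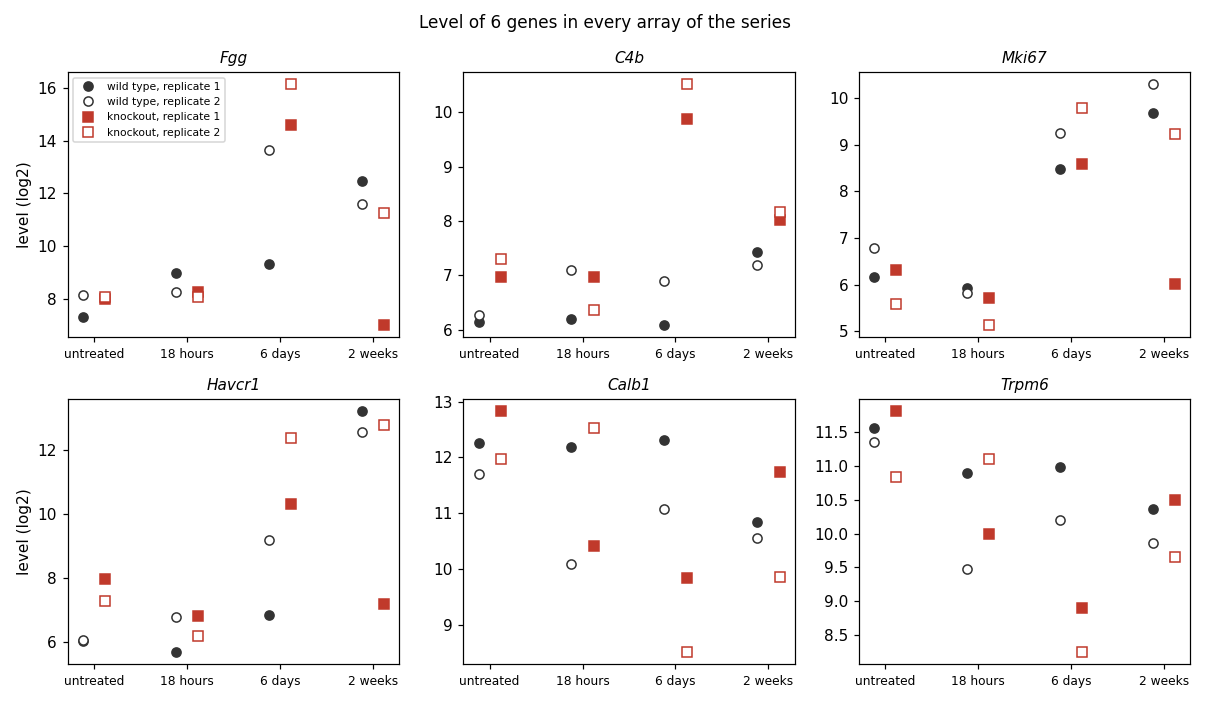
Level (log2, vertical axes, own scale per panel) of 6 genes in all 16 arrays by time after serum; circles are wild type, squares knockout, filled symbols replicate 1 and open symbols replicate 2. Knockout levels of Fgg and C4b are highest at 6 days and those of Trpm6 and Calb1 lowest, and the knockout replicates at 2 weeks are far apart for Fgg, Mki67 and Havcr1.

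At 18 hours Fgg read 8.26 in knockout replicate 1, near the untreated arrays, and 8.08 in the library labelled knockout replicate 2. At 2 weeks it read 7.002 and 11.25. C4b read 6.97 in knockout 18 hours replicate 1, 6.36 in the library labelled replicate 2, and 8.03 and 8.17 at 2 weeks, the last 2 between the untreated and 6-day values. Mki67 read 6.01 and 9.24 at 2 weeks, and Havcr1 7.17 and 12.77. For Fgg, Mki67 and Havcr1 knockout 2 weeks replicate 1 thus sat near or below the untreated arrays and replicate 2 well above them, while for C4b the replicates were alike. Over the 359 higher genes the median distance from untreated was -0.10 in 2 weeks replicate 1 and 1.32 in replicate 2, and 0.07 and 0.25 in the 18-hour arrays, the last in the library labelled replicate 2.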

How the data were processed

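The deposited table holds log2 values that the authors summarised and normalized before deposit. The submitters' processing notes name Affymetrix Expression Console and Transcriptome Analysis Console; versions, summarisation method and build are not given in the sources here. Of 72688 probesets, 30604 had exactly 1 symbol (827 updated through the Entrez identifier), 2146 had several and 39938 had none, and the last 2 kinds were left out. The probeset with the highest mean over all 16 arrays stood for its gene, which left 30142 genes. Array medians ran from 5.57 to 5.90.

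A model with 1 mean per group was fitted with limma 3.58.1 (R 4.3.3, intensity trend) to the 8 untreated and 6-day arrays, with 4 residual and 3.36 prior degrees of freedom and Benjamini-Hochberg adjustment over all genes. Each array is a separate mouse, so the spread is that between mice, but with 2 arrays per group precision is low. No detection calls or scan batches were used here.

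The comparison, the 44 gene lists (859 distinct genes measured) and the naming rule were chosen with earlier results of these data known. Named genes are Esr1, called genes, in each list up to 4 members with the largest absolute knockout difference plus any called, and the 3 smallest p-values for the difference between genotypes. Numbered predicted transcripts were counted and named only where said. Promoter sequences are RefSeq's, GRCm38.p6, and were matched by symbol.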

Additional observations from a re-analysis of the deposited data

Results flagged for a closer look

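In 5 of 200 named genes both knockout arrays at 6 days moved to one side of the untreated knockout arrays. In these 5 genes both wild type arrays moved to the other side of theirs. The fitted difference between the genotypes' responses did not pass for any of them (limma adjusted p = 1 for each). With so few arrays per group, such opposite splits can also arise by chance. Many named genes were chosen for a large knockout difference, which favours a split of the knockout arrays. The share of all genes split in this way was not counted, so no excess among the named genes is shown. Rarres2, which encodes the adipokine chemerin, had a knockout response minus wild type response of -2.67: knockout read 11.65 and 9.83, then 8.87 and 8.67, and wild type 8.12 and 8.57, then 9.14 and 8.95. Scd1, the stearoyl-CoA desaturase, had a difference of -1.98: knockout read 11.28 and 12.15, then 10.08 and 10.35, and wild type 13.96 and 13.47, then 14.001 and 14.39. Alas2, the haem synthesis enzyme of red cell precursors, had -1.87 and Cyp7b1, an oxysterol and steroid hydroxylase, had -1.71. Mme, the peptidase neprilysin of podocytes and proximal tubule, had -0.99. At baseline Cyp7b1 read 11.27 and 11.60 in untreated knockout and 5.18 and 5.05 in untreated wild type.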

How the results depend on the processing

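The 20 knockout calls (18 higher, 2 lower) became 4 with all 16 arrays, 0 with 14 (without the 18-hour second replicates), 0 with 12 (without any 18-hour array), 0 with the 4 knockout arrays alone, 151 without dim genes (14 of the 20 among them), and 0 under quantile normalization, median centring or no intensity trend. They stayed 20 with the mean of all probesets and with a robust prior (19 shared). The term for replicate number (replicate block) gave 31 (10 shared), and 0 in wild type; the numbers share only a label, with correlations of replicate deviations of 0.10 in knockout and -0.06 in wild type. Leaving out 1 array gave 0 to 945. The alternative of calling at an adjusted p under 0.1, added after the data were seen, gave 417 in knockout and 19 in wild type. The 6 wild type calls became 0 with 16, 14 or 12 arrays, 2 without dim genes, 3 under quantile normalization, 2 without a trend, 3 with a robust prior, and 0 to 115 leaving out 1 array. The difference between genotypes had 0 calls under each alternative. The genes apart upwards numbered 319 to 358 under other scalings and filters and 207 to 659 leaving out 1 knockout array, and those apart downwards 191 to 228 and 83 to 479 (counts of apart genes under alternatives were added after the data were seen). The 17 named calls kept their direction under every alternative. In all 20 calls the 6-day and untreated knockout arrays did not overlap, so leaving out 1 array could not turn the sign. A kept direction is thus no check on the calls, whose number changed as given above. With 1 array left out, signs turned for the difference of responses of Klf4 (-0.063 to 0.21, negative without wild type untreated replicate 1), Ckap2 (-0.057 to 0.15, negative without knockout 6 days replicate 2 or, at -0.0049, wild type 6 days replicate 2) and Top2a (-0.009 to 0.61, negative without knockout 6 days replicate 2). They also turned for the knockout response of Fcgr4 (-0.24 to 0.064, positive without knockout untreated replicate 1), Fcgr2b (-0.41 to 0.095, positive without knockout untreated replicate 2) and Ace (-0.87 to 0.023, positive without knockout 6 days replicate 2). Apart from the smaller sets of arrays or genes fitted, the cause was not tested.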
